A study of Mus musculus with 8 samples.

Results

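The RLTR and RMER families are 221 groups of long terminal repeat (LTR) elements of the mouse genome, chosen here by name from 903 repeat families in the deposited tables. Every family whose name starts with RLTR or RMER was taken, except those starting with RLTR10 and those with ETn in the name. Of the 221, 215 were listed at 16.5 days post coitum (dpc), 218 at 10 days post partum (dpp) and 219 at 20 dpp, and 213 were listed at all 3 ages. By name, 15 of the 219 families of 20 dpp are internal parts of an element (suffix -int) and 204 are LTRs, and together they fall under 58 name stems such as RLTR9 or RMER21. The lowest read count in any table was 5, so a family without reads in 1 genotype was not analysed here.

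Whole testis RNA was sequenced from male mice with an IAP insertion, a copy of an endogenous retrovirus, in Dnmt3C, which encodes a DNA methyltransferase that acts on young retrotransposons in foetal male germ cells. Mutants were homozygous (IAP/IAP) and controls heterozygous (IAP/WT), so the controls carried the insertion too, and all came from a hybrid background of C3H/HeJ and C57BL/6J. The 8 libraries comprise 2 of each genotype at 20 dpp and a single one of each at the younger ages. Whether the 2 libraries of a genotype stem from different animals is not stated, so the p-values reflect the spread among these libraries, which may be technical.

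An LTR is the repeat at each end of an integrated retrovirus and holds its promoter and enhancer sequences. Most copies in the genome are solitary LTRs, left when the ends recombine and the internal part is lost. In the germ line such copies are kept silent by DNA methylation and by repressive histone marks that zinc finger proteins and TRIM28 bring to them. Copies that escape silencing can act as promoters or enhancers of nearby genes, so reads on a family can come from the element itself or from a host transcript that runs through a copy. RLTR9 copies are known to bind pluripotency factors in embryonic stem cells, RLTR4 belongs to murine leukaemia virus, and RMER15 belongs to the ERVL class.

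The libraries held 57166311 to 155742823 reads on genes, and repeat families took 2.34% to 5.52% of all counted reads. At 20 dpp this percentage was 2.51% for control replicate 1 and 2.34% for control replicate 2, while mutant replicates 1 and 2 reached 5.52% and 5.12%. Of the family reads, the RLTR and RMER families made up 10.2% in both 20 dpp controls, but 5.59% and 6.27% in the mutants. Since the family total itself differed by genotype, the smaller share does not by itself show lower levels. As RPM, here reads for every 1000000 reads on genes, the RLTR and RMER families had 2624 and 2455 in the controls but 3266 and 3387 in the mutants. At 10 dpp the value was 3236 in the mutant and 3385 in the control library, and at 16.5 dpc 3175 and 3316. Markers of late germ cells moved with genotype at 20 dpp: of 40 listed genes of spermatids and of spermatocytes from pachytene on, 34 were measured, 33 of them fell and 0 rose (limma adjusted p under 0.05; median log2 change -5.96). Their summed level was 43106 to 57508 normalised reads in the mutant libraries, while the controls had 1698400 to 2000800. Because the lowest read count in any table was 5, a marker at 0 in a library could not be seen. Cabs1, Catsper1, Hils1, Pgk2, Prm2 and Spag6l were not in the tables, so their levels in either genotype are unknown. Of 80 listed markers of spermatogonia, Sertoli, Leydig, myoid and endothelial cells and leukocytes, 79 were measured, 44 rose and 6 fell (median log2 change 0.82; summed level 1216800 to 1269700 in the mutant libraries, while the controls had 757270 to 856000). In whole testis, fewer cells of a type and less RNA per cell cannot be told apart. A level of the mutated gene was not analysed here and gave no check of the genotypes.

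At 20 dpp more of these LTR families were lower in the mutants than higher. Of 219 families 24 fell and 5 rose in limma with Benjamini-Hochberg adjustment over all 888 families at 0.05, that is 11.0% lower and 2.28% higher. Over all families 11.9% were called, 7.21% lower and 4.73% higher. The median log2 change was 0.01 over the RLTR and RMER families and 0.13 over all families, with values from -3.81 to 1.76, on the scale the authors deposited. The mutant and control libraries did not overlap for any of the 29 families called, and for 63% of all families. Another scale gave another split. Scaling by total gene reads shifts the median over all genes from 0.05 to 0.64, and 16 families were then lower and 66 higher. All 16 were among the 24, and all 5 of the higher families were among the 66. On that scale RLTR9A2 stood at -3.21, RMER21B at -2.81, RLTR13D6 at -2.37, RLTR21 at 1.73 and RLTR25B at 1.94. With families fitted apart from genes 52 were lower and 21 higher. Without control replicate 1, 12 were lower and 3 higher, and without control replicate 2, 16 and 3.

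RLTR9A2 showed the deepest fall. It had 104 and 78.8 normalised reads in the mutant libraries, while the controls had 1461 and 1122. Both mutant libraries lay far below both controls. Its level was 14.0-fold lower, a log2 change of -3.81 ± 0.33 (SE; limma adjusted p = 5.9e-04, n = 2 each). RMER21B, of the ERV1 class, had 627 and 738 normalised reads in the mutant libraries, while the controls had 7543 and 6886. The replicates of each genotype were close together, and the fall was 10.6-fold (log2 change -3.40 ± 0.18, adjusted p = 8.5e-05). RLTR13D6 had 1010.04 and 1129 in the mutant libraries, while the controls had 8404 and 8296, a 7.81-fold fall (-2.97 ± 0.15, adjusted p = 8.5e-05).

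Of the other families whose call held under every alternative, 6 fell by 4.34-fold to 6.64-fold. RLTR41A2 had 301 and 285 normalised reads in the mutant libraries, while the controls had 1503 and 1616 (log2 change -2.41 ± 0.25). RLTR41B, with the same stem, had 49.1 and 40.4 against 309 and 295 (-2.73 ± 0.41). The libraries of each genotype agreed closely for both. RLTR20A2B_MM had 291 and 406 against 1610.0 and 1936 (-2.36 ± 0.27), and RLTR30B_MM had 395 and 360 against 1911 and 1950.4 (-2.35 ± 0.23). RLTR9F had 318 and 324 against 1608 and 1663 (-2.34 ± 0.24). RLTR22_Mur had 717 and 847 against 3580.5 and 3210 (-2.12 ± 0.20). Their limma adjusted p-values ran from 7.6e-04 to 0.0057.

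The remaining abundant families that fell did so by about 2-fold. RMER5 had 3388 and 3509 normalised reads in the mutant libraries, while the controls had 9070.1 and 7653 (-1.27 ± 0.14, adjusted p = 0.0018 in limma). RLTR1B-int, an internal part, had 3043 and 3699 against 7769 and 8261 (-1.26 ± 0.15, adjusted p = 0.0024). RMER15-int, the internal part of an ERVL element, had 3657 and 4195 against 8373 and 7512 (-1.02 ± 0.14, adjusted p = 0.0052). In each of the 3 the lowest control stood well above the highest mutant library. These 3 families and the 9 named before them, 12 in all, kept their call under every alternative tried.

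The other 12 families that fell lost their call in at least 1 alternative, and all 12 kept the sign in each alternative tried. RLTR1F_Mm, a scarce family, had 36.3 and 14.8 normalised reads in the mutant libraries, while the controls had 215 and 142 (-2.86 ± 0.58, limma adjusted p = 0.021). Leaving out mutant replicate 1 gave -3.48 and leaving out mutant replicate 2 gave -2.24, and its call was lost without control replicate 1 (adjusted p = 0.112) or control replicate 2 (0.0547). RLTR9A3A (-1.73), RLTR19D (-1.45) and RLTR50B (-1.26) had adjusted p-values between 0.043 and 0.047, and they also lost their calls without mutant replicate 1 (0.0866 to 0.130). RLTR35B_MM (-1.83), RLTR9D (-1.49), RLTR16B_MM (-1.45) and RMER21A (-0.92) lost theirs without control replicate 1. RLTR1D2_MM (-1.27), RMER20C_Mm (-1.12), RLTR24 (-1.05) and RLTR14 (-0.97) lost theirs without control replicate 1 and again without control replicate 2. Over the 12 families lost without control replicate 1 the adjusted p lay between 0.0602 and 0.204, and over the 8 lost without control replicate 2 between 0.0547 and 0.108. With total gene reads as the scale 8 of these calls were lost (0.0589 to 0.216).

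**Figure D1:**
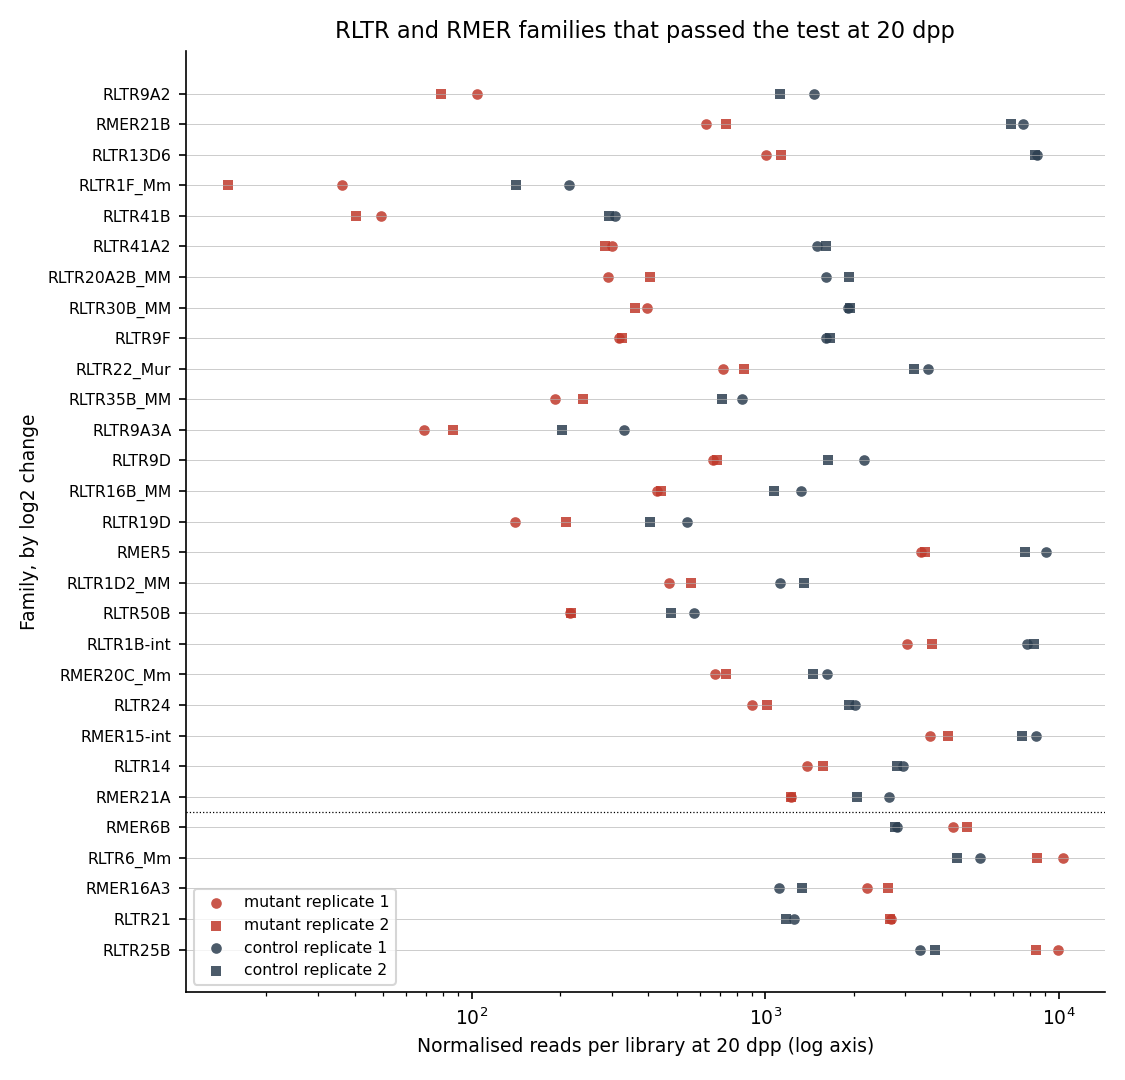
Normalised reads (log axis) of the 29 RLTR and RMER families that passed at 20 dpp, 1 point per library, ordered by log2 change with the 24 lower families above the dotted line and the 5 higher ones below it. The mutant and control libraries do not overlap for any of the 29, which these same libraries chose, nor for 63% of all families. RLTR9A2 at the top shows the widest gap.

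The 5 families that rose did so by smaller steps, between 1.65-fold and 2.54-fold. RLTR25B had 9941 and 8340.3 normalised reads in the mutant libraries, while the controls had 3369 and 3804. Both mutants lay above both controls, and the log2 change was 1.35 ± 0.15 (limma adjusted p = 0.0017). RLTR21 had 2679 and 2672 in the mutant libraries, while the controls had 1256 and 1180 (1.14 ± 0.18, adjusted p = 0.0067). Both kept their call under every alternative. RMER16A3 had 2218 and 2625 against 1119 and 1336 (0.98 ± 0.20, adjusted p = 0.021). RLTR6_Mm had 10340 and 8436 against 5399 and 4501 (0.92 ± 0.16, adjusted p = 0.011). RMER6B had 4374 and 4852 against 2808 and 2776 (0.72 ± 0.15, adjusted p = 0.021). The groups did not overlap for these 3 families either. Calls on RMER6B and RMER16A3 were lost without control replicate 1 (0.0951 and 0.105), without mutant replicate 2 (0.0537 and 0.0651) and with scaling by the families (0.124 and 0.0699). RMER6B lost its call without control replicate 2 too (0.100), as did RLTR6_Mm (0.0701), and neither passed without a trend (0.0568 and 0.0604). In these libraries the 79 spermatogonial and somatic markers had a median log2 change of 0.82, and their part in the result was not tested.

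Levels across ages are given for both sets, the families lower and the families higher in the mutants than in the controls at 20 dpp. RPM set the ages on 1 scale, since the authors scaled each age apart. It is the scale of total gene reads, while the 2 sets were called on the deposited scale. At 20 dpp the median log2 change over all genes is 0.64 on that scale and 0.05 as deposited, so mutant levels stand higher in RPM. The 20 dpp libraries in this comparison also chose the 2 sets, so the course to 20 dpp is a description. Age and any difference in how the libraries of an age were made cannot be told apart. The mean control level rose from 10 to 20 dpp in 24 of the 24 families of the lower set, against 98 of 217 members and 390 of 811 families. For the 24 the median log2 ratio was 1.81 (0.33 to 4.63), against -0.13 over all members and -0.05 over all families. In the mutants the 24 families changed by a median of 0.57 (-0.41 to 1.81), against 0.41 over all members and 0.61 over all families. Summed over the 24, there were 196 RPM in the 10 dpp control and 198 in the 10 dpp mutant. At 20 dpp the sum was 224 and 241 in the mutant libraries, while the controls had 483 and 479. The mean mutant level also rose in 21 of 24 families, beside 171 of 217 members and 665 of 811 families. In the sum the mutants rose by less than the controls did.

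Single families showed this rise in the controls, while their course in the mutants varied. RMER21B had 3.32 (mutant) and 3.87 (control) RPM at 16.5 dpc and 5.04 and 5.35 at 10 dpp. At 20 dpp it had 6.91 and 7.87 in the mutant libraries, while the controls had 52.4 and 51.0, 9.67-fold above the 10 dpp control. RLTR13D6 had 13.1 in the control and 14.1 in the mutant of 10 dpp, and at 20 dpp 11.1 and 12.0 in the mutant libraries, while the controls had 58.4 and 61.4. In the mutants RMER21B stayed under 2-fold above its 10 dpp level, and RLTR13D6 lay below its own. RLTR9A2 increased 3.07-fold in the mutants, from 0.324 at 10 dpp to 1.15 and 0.841 at 20 dpp. In the controls it increased 24.7-fold, from 0.373 to 10.2 and 8.31.

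The 5 families higher in the mutants at 20 dpp had 2 kinds of course over age. RLTR21 fell in the controls from 33.8 RPM at 10 dpp to 8.73 and 8.74 at 20 dpp, and in the mutants from 40.9 to 29.5 and 28.5. RLTR6_Mm fell in the controls from 119 to 37.5 and 33.3, while the mutants had 112 at 10 dpp and 114 and 90.0 at 20 dpp. RMER6B had 23.7 in the 10 dpp control and 19.5 and 20.6 in the 20 dpp controls, and in the mutants 26.3 and then 48.2 and 51.8. For these 3 the 20 dpp control level lay below that of 10 dpp. The same held for 116 of 188 members that did not pass (median log2 ratio -0.25). RLTR25B and RMER16A3 were scarce at both earlier ages and higher at 20 dpp in both genotypes. RLTR25B went from 4.68 to 23.4 and 28.2 in the controls and from 4.39 to 110 and 89.0 in the mutants. RMER16A3 went from 0.344 to 7.78 and 9.89 in the controls and from 0.401 to 24.5 and 28.01 in the mutants. The libraries before 20 dpp did not choose the sets. In these libraries the control level changed from 16.5 dpc to 10 dpp. The median log2 ratio was 1.14 (-0.11 to 1.31) for the 5 families higher in the mutants at 20 dpp. For the 24 families lower in the mutants at 20 dpp it was 0.21 (-0.76 to 2.34), against 0.17 over all members and 0.17 over all families.

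**Figure D2:**
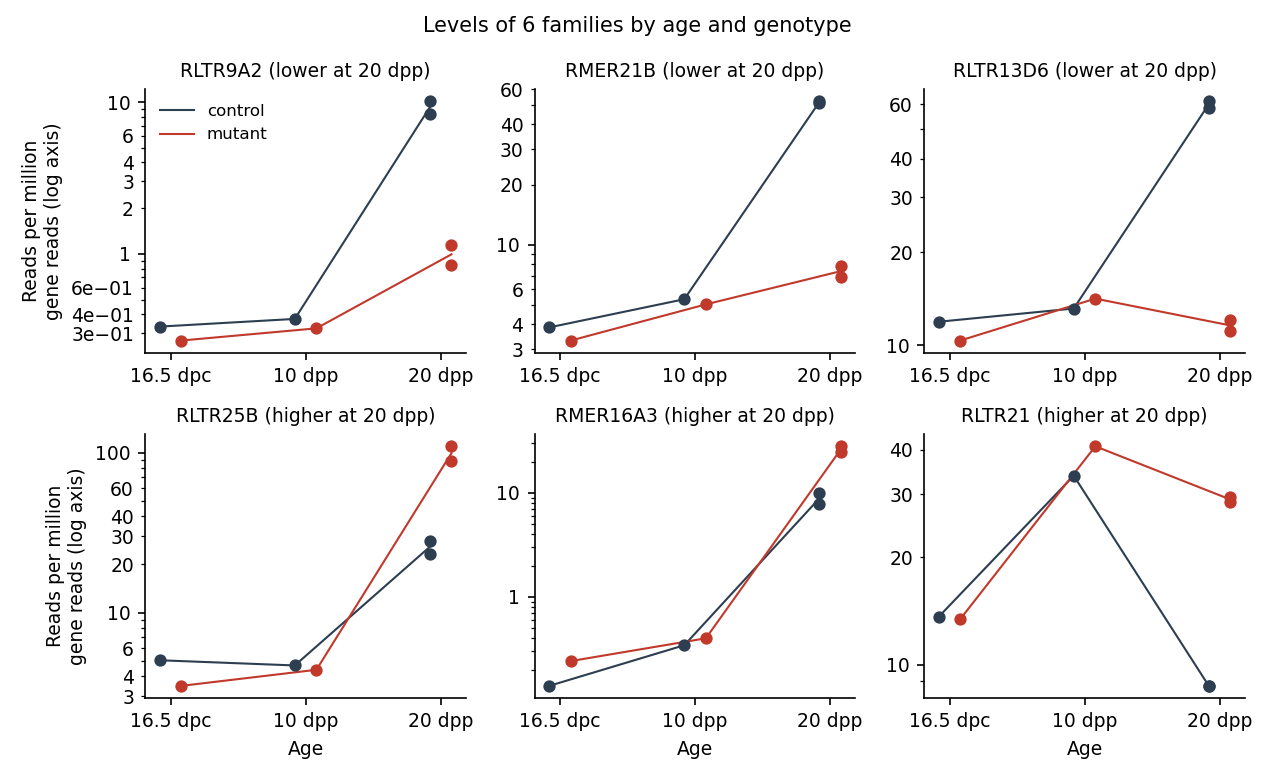
RPM (log axis) by age for 3 families lower and 3 higher in the mutants at 20 dpp, 1 point per library, with lines through the mean of each genotype. RLTR9A2, RMER21B and RLTR13D6 climb in the controls at 20 dpp. From 10 dpp in the mutants, RLTR9A2 and RMER21B climb far less and RLTR13D6 drops. RLTR25B and RMER16A3 climb in both genotypes and further in the mutants, and RLTR21 drops from 10 dpp further in the controls.

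Marker genes of cell types changed in the same libraries. The 16 genes of pachytene and later spermatocytes measured at all ages summed to 141 and 147 RPM at 10 dpp, to 585 and 424 in the 20 dpp mutants and to 12390 and 11482 in the 20 dpp controls. Clgn, a chaperone of spermatocytes, had a log2 change of -5.79 at 20 dpp, and Ropn1l, a protein of the sperm tail, -6.51. The 16 spermatid genes measured at 20 dpp all fell (median -5.79), with Acrv1, found in the acrosome, at -8.54 and Crem, a regulator of spermatid genes, at -3.42. Early meiotic genes moved less: of 20 measured 12 fell and 3 rose (median -0.69). The deepest falls were in Syce1, of the synaptonemal complex (-2.83), and Spo11, which makes meiotic DNA breaks (-2.79). Those that rose were Prdm9 (1.91), Dmc1 (1.08) and Mei4 (0.87). Of 20 spermatogonial genes 14 rose and 2 fell (median 0.95), the 2 being Id4 (-2.35) and Dmrtb1 (-3.81). Among 19 genes of Sertoli cells, the somatic nurse cells, 17 rose and 1 fell (median 0.93), with Wt1 at 1.37. Cst9, the 1 that fell (-2.06), was also lower in the single mutant libraries of 10 dpp (log2 ratio -4.05) and 16.5 dpc (-3.03). Over all genes 59.5% were called, 26.4% higher and 33.1% lower. The families that fell went down in libraries with lower late germ cell markers, and their part in the result was not tested. Leydig cell (median 0.49), myoid (0.83), leukocyte (0.49) and endothelial genes (0.24) had 3, 4, 4 and 2 members higher and 1, 0, 1 and 1 lower.

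Libraries of 1 genotype were not alike in these markers. Summed over the 18 measured genes of pachytene and later spermatocytes, mutant replicate 1 had 1.34-fold the level of mutant replicate 2, and the sum over spermatids was 1.23-fold higher. Between the same libraries the sum over myoid genes differed 1.91-fold and that over Leydig cell genes 1.44-fold. Between control replicates 1 and 2 the ratio was 1.15 for pachytene genes, 1.85 for spermatids, 0.772 for myoid and 0.527 for Leydig cell genes. The 24 families that fell had a median log2 ratio of -0.14 between mutant replicates 1 and 2, with 6 of 24 above 0. Over all members the median was -0.17, with 57 of 219 above 0, and over all families -0.19.

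**Figure D3:**
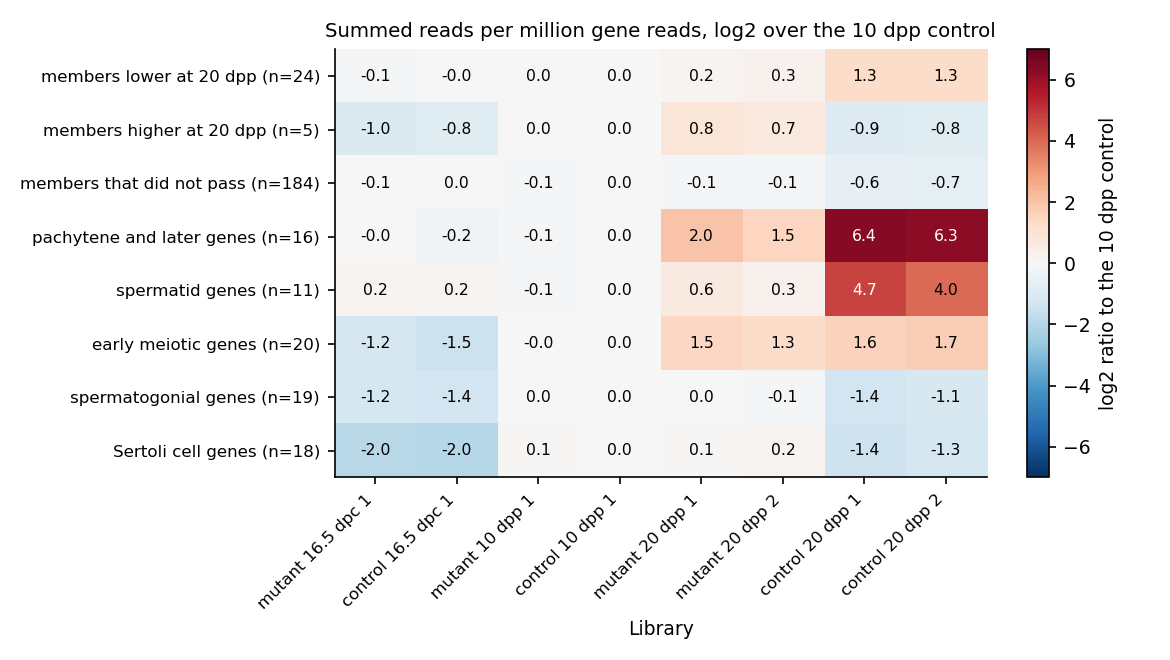
Log2 ratio to the 10 dpp control of summed RPM, for the RLTR and RMER families by their direction at 20 dpp and for marker gene lists (rows, with the number of members measured at all 3 ages) in each of the 8 libraries (columns). The families lower at 20 dpp are raised in both 20 dpp controls, as are the pachytene and spermatid genes. The sum of the families higher at 20 dpp, to which RLTR6_Mm and RLTR21 add the most at 10 dpp, is below the 10 dpp level in the same controls. So are the sums of the members that did not pass and of spermatogonial and Sertoli cell genes.

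In the single pair of libraries of 10 dpp, which has no replicate check, the RLTR and RMER families differed little between genotypes. To be listed, a family needed a 2-fold ratio or more, an exact binomial 95% interval that leaves out 1, and 50 or more reads over the pair. The intervals cover counting error only. By this rule 1 of 218 was listed higher and 0 lower, against 1.82% of all 823 families listed, 1.58% higher and 0.243% lower. The log2 ratios had a median of -0.01 and ran from -1.10 to 1.21. The 1 listed family was RLTR9A3A, with 34.7 normalised reads in the mutant and 15.7 in the control (2.21-fold, interval 1.19 to 4.29), which fell at 20 dpp. The same rule between the 2 mutant libraries of 20 dpp listed 6 of 219 members, and between the 2 controls 9, so 1 is no more than replicates gave. The 24 families that fell at 20 dpp had a median log2 ratio of 0.02 at 10 dpp, with 12 above 0 and 12 below. The 5 that rose had a median of 0.16 (-0.08 to 0.28). RLTR21 was 1.22-fold higher (1.15 to 1.29) and RMER6B 1.12-fold (1.05 to 1.201), while RLTR25B stood at 0.947 (0.804 to 1.12) and RLTR6_Mm at 0.948 (0.918 to 0.979).

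Among the 24 families that fell at 20 dpp, the interval of the 10 dpp ratio held 1 for some and not for others, which also depends on read number. It left out 1 for RLTR35B_MM (0.700, 0.512 to 0.952), RMER5 (0.935, 0.876 to 0.998), RMER15-int (0.931, 0.884 to 0.981), RLTR1B-int (1.23, 1.16 to 1.30) and RLTR9A3A, given above. RMER21B had a mutant to control ratio of 0.9501 at 10 dpp (interval 0.815 to 1.11), RLTR13D6 1.09 (0.988 to 1.19), RLTR22_Mur 1.04 (0.912 to 1.19) and RLTR30B_MM 1.11 (0.949 to 1.29). On few reads, RLTR9A2 stood at 0.874 (0.465 to 1.63), RLTR1F_Mm at 1.13 (0.458 to 2.84) and RLTR41B at 0.468 (0.188 to 1.08), so wide intervals leave large differences possible there. The difference between the 20 dpp change and the 10 dpp ratio was tested as an interaction in limma over 6 libraries, with the spread taken from the 20 dpp libraries, so that the single 10 dpp libraries are assumed to vary like them. Of 217 families 6 had a lower change at 20 dpp than at 10 dpp (2.76%, against 1.97% of all 811 families called and 1.48% lower) and 0 a higher one (4 at an unadjusted p under 0.05). They were RLTR9A2 (interaction -3.62 ± 0.70 on the log2 scale, adjusted p = 0.043), RMER21B (-3.33 ± 0.36, 0.0041), RLTR13D6 (-3.08 ± 0.29, 0.0041), RLTR30B_MM (-2.50 ± 0.42, 0.030), RLTR22_Mur (-2.18 ± 0.37, 0.030) and RLTR1B-int (-1.55 ± 0.26, 0.030). The 20 dpp values enter both this test and the falls, so the 6 are not a separate line of evidence for them. In limma without a trend 0 of the 6 passed (adjusted p 0.0608 to 0.143). Without control replicate 1 or control replicate 2, 2 of 217 members passed, and without mutant replicate 2, 11 passed lower and 2 higher.

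**Figure D4:**
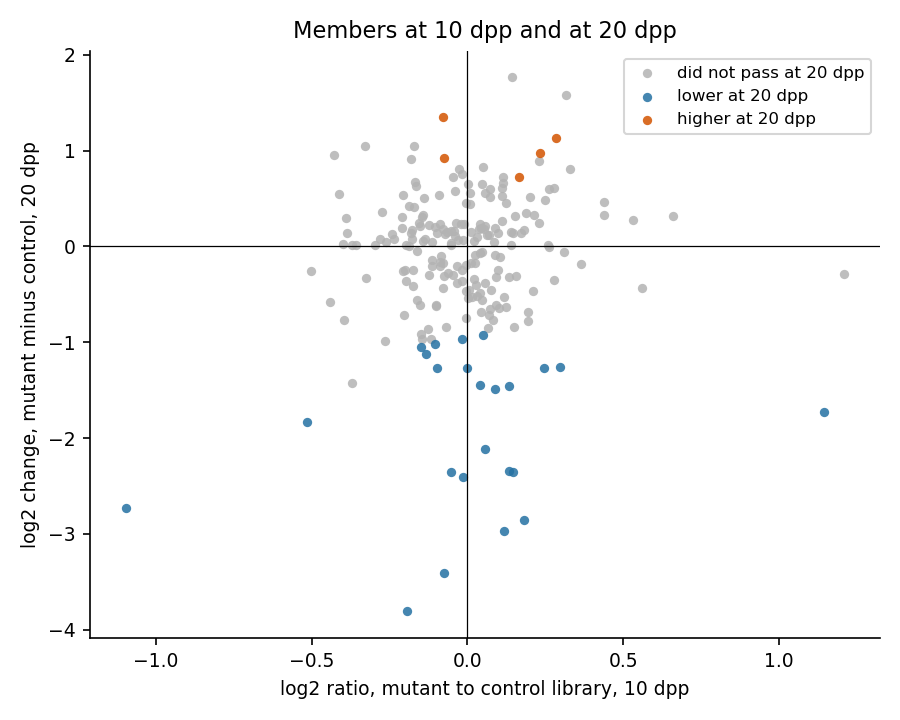
Log2 ratio of the mutant to the control library at 10 dpp (horizontal axis) against the log2 change at 20 dpp (vertical axis) for each RLTR and RMER family measured at both ages, coloured by its result at 20 dpp. The families lower at 20 dpp lie on both sides of 0 at 10 dpp, with 12 above and 12 below, and the scarce RLTR9A3A and RLTR41B lie farthest out among them.

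At 16.5 dpc 1 of 215 families was listed higher and 0 lower by the same rule, against 0.496% of all 806 families listed, 0.124% higher and 0.372% lower. It was RLTR19D, with 35.1 normalised reads in the mutant and 15.95 in the control library (2.20-fold, interval 1.17 to 4.38). RLTR19D then fell at 20 dpp, and at 10 dpp it stood at 1.03 (0.748 to 1.41). The 24 families that fell at 20 dpp had a median log2 ratio of -0.06 at 16.5 dpc and the 5 that rose -0.14, against -0.09 over all members. RLTR25B was lower in the mutant library at this age, at 0.693 (0.583 to 0.822), with 227 normalised reads against 328. RLTR21 stood at 0.987 (0.898 to 1.09). The 5 ran from -0.53 to 0.79 and the 24 from -0.51 to 1.14, so the sets overlapped. Their difference was not tested, because the families are not replicates.

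In most name stems with a call, some families passed and others did not. The 24 that fell came from 17 of the 58 stems and the 5 that rose from 5 others, with 0 stems holding both. Of 12 RLTR9 families 4 fell (RLTR9A2, RLTR9F, RLTR9A3A and RLTR9D), 10 had a log2 change below 0 and the median was -0.40. RLTR9A3B had -1.42 and did not pass (limma adjusted p = 0.0681), while RLTR9A had 0.12 and RLTR9B2 0.03. Both RMER21 families fell, RMER21B by far more than RMER21A. Of 4 RLTR41 families 2 fell, and RLTR41C (0.65) did not pass.

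The RLTR13 stem was the largest, with 23 families, and only RLTR13D6 passed. Its relative RLTR13D5, known as an enhancer source in trophoblast stem cells, did not pass either (-0.25). RLTR13C3 had the highest value of all members, 1.76, with an adjusted p of 0.0567 in limma. Of 8 RLTR1 families 3 fell, and the other 5 had changes of 0.13 to 0.67. Of the 9 RLTR12 and 10 RMER17 families 0 passed in limma, with medians of 0.25 and -0.29. Families of a stem have similar sequence and can share reads, and how the authors treated reads with many matches is not given in the sources used here.

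**Figure D5:**
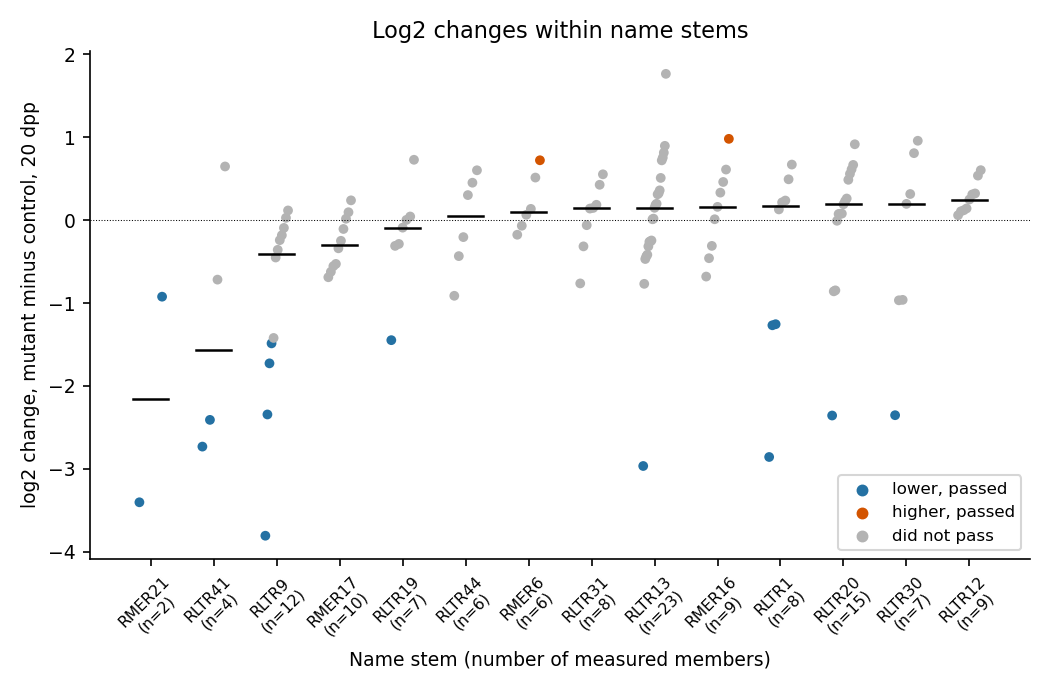
Log2 change at 20 dpp of each family, grouped by name stem, for stems with at least 6 measured families or 2 calls, with a line at the median of each stem. Within RLTR9 and RLTR1 a few families lie far below the rest of their stem, and within each of RLTR13, RLTR20 and RLTR30 1 family does.

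As deposited, no pair of an LTR and its internal part had a call on both. Of 15 internal parts 12 had an LTR of the same name, in 13 pairs, and 4 pairs held a call, each on 1 part only. RLTR1B-int fell (-1.26). Its LTR RLTR1B had 669 and 896 normalised reads in the mutants against 719 and 619, a log2 change of 0.21 ± 0.27 (limma adjusted p = 0.641). RMER15-int fell (-1.02) while RMER15 had 7374 and 8241 against 9340.1 and 8634 (-0.20 ± 0.13, adjusted p = 0.337). RLTR14 fell (-0.97) while RLTR14-int had 3405 and 3552 against 4054 and 3792 (-0.17 ± 0.14, adjusted p = 0.451). RLTR6_Mm rose (0.92) while RLTR6-int had 10143 and 10735 against 14792 and 12560.4 (-0.39 ± 0.13, adjusted p = 0.106). The differences between the parts were not tested. With total gene reads as the scale both parts passed in 2 of these pairs, in opposite directions. RLTR1B then had 0.81 (adjusted p = 0.0401) and RLTR1B-int -0.66 (0.0138), and RMER15 had 0.39 (0.0415) and RMER15-int -0.42 (0.0444).

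The families with the most reads did not pass at 20 dpp as deposited. RLTR4_MM-int, the internal part of murine leukaemia virus, had 35102 and 36324 normalised reads in the mutant libraries, while the controls had 34004 and 30909 (0.14 ± 0.12, limma adjusted p = 0.459). At 10 dpp it was lower in the mutant library, with 31327 against 40917 (ratio 0.766, interval 0.754 to 0.777), and at 16.5 dpc it stood at 0.939. RLTR19-int had 22549.9 and 21890 against 23882 and 23434 (-0.09 ± 0.11, adjusted p = 0.637), and RMER19B had 9793 and 10217 against 11744 and 9722 (-0.10 ± 0.14, adjusted p = 0.692). With total gene reads as the scale RLTR4_MM-int had 0.74, RLTR19-int 0.51 and RMER19B 0.50, and all 3 passed (adjusted p = 0.0023, 0.012 and 0.019). RLTR45-int had 7232 and 6120 against 10017 and 9128 (-0.52 ± 0.14, adjusted p = 0.0566). The control libraries of RLTR45-int both lay above the mutants. It passed lower with families fitted apart from genes (0.0274), with the replicate block (0.0484) and without mutant replicate 1 (-0.64, 0.0152), and stood at 0.07 with total gene reads (0.708).

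Genes of the machinery that silences LTR elements went both ways at 20 dpp. Of 35 measured, 8 rose, 18 fell and 9 did not pass in limma (median log2 change -0.41, against 0.05 over all genes), beside 26.4% of all genes higher and 33.1% lower. Trim28, the corepressor that zinc finger proteins recruit, fell (-1.30), and so did Daxx (-1.25), a histone H3.3 chaperone, and Chaf1a, of the chromatin assembly complex (-2.42). Setdb1, the H3K9 methyltransferase that works with TRIM28, had -0.04 and did not pass (adjusted p = 0.751). Zfp809, which recognises the primer binding site of murine leukaemia virus, had 0.08 (adjusted p = 0.777), beside the change of 0.14 of RLTR4_MM-int. Atrx, the partner of Daxx, rose (1.29), and so did Suv39h1, an H3K9 methyltransferase (1.42). Piwil2, a PIWI protein of the germ line, fell (-1.66). At 10 dpp Trim28 had a log2 ratio of -0.01 and Chaf1a 0.01 between the single libraries.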

How the data were processed

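For each of the 8 libraries a gene table and a repeat family table were used. The deposited values are log2 values, made by the authors; per the submitters' processing notes mm10, TopHat2 2.0.6, HTSeq 0.6.1 and Bowtie 1.0.0 were used, with no role given. Each value equalled log2 of a whole read count times a library factor, plus 1, within 0.01 reads for 100% of values. A row that names no repeat (up to 0.0109% of reads on families) was dropped. Normalised reads are these counts times the authors' factor, which was set within each age.

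At 20 dpp limma 3.58.1 in R 4.3.3 was fitted to the deposited log2 values of genes and families together (4 libraries, eBayes with a trend, 2 residual and 5.21 prior degrees of freedom), with Benjamini-Hochberg adjustment over all families and over all genes separately. Since 1 was added before the log2, changes of scarce families are understated. The interaction used 6 libraries of 10 and 20 dpp. Single-library ratios have exact binomial 95% intervals (SciPy 1.17.1, Python 3.11.15). Counts were simulated from the libraries' own means, with 1 assumed spread for all genes and families that was not estimated from the libraries. On these counts the 20 dpp fit recovered 65% of 20 families changed 2-fold and 100% of 20 changed 4-fold, among 888 simulated. The interaction recovered 20% and 95% of 20 each, among 811.

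The families, gene lists and tests were chosen with earlier results of these data known. Named were the families that passed at 20 dpp (up to 25 each way), the 6 with the most reads, those listed at the single-library ages (up to 5 each way), LTR and internal pairs with a call, and the 2 genes of lowest p of each list; other families and genes were named after their values were seen. Alternatives covered scaling, pseudocount, low values, spread, replicates left out and a replicate block.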

Additional observations from a re-analysis of the deposited data

Results flagged for a closer look

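The change between genotypes differed between 20 and 10 dpp for 6 families in the limma interaction test, on the log2 scale: RLTR9A2 by -3.62, RMER21B by -3.33, RLTR13D6 by -3.08, RLTR30B_MM by -2.50, RLTR22_Mur by -2.18 and RLTR1B-int by -1.55. All 6 were among the 24 families called lower from the same 20 dpp libraries. Their lower levels in both mutants are therefore no separate evidence, and 63% of all families did not overlap there. In limma without a trend 0 of the 6 passed. RLTR19D was higher in the mutant library at 16.5 dpc, with a log2 ratio of 1.14, and lower in both mutants at 20 dpp. The difference between these 2 ages was not tested.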

How the results depend on the processing

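At 20 dpp the main counts were 24 lower and 5 higher. TMM scaling, scaling by the families, a pseudocount of 8, a minimum of 50 reads on average, voom weights and limma without a trend gave 23 to 25 lower and 4 to 5 higher. Total gene reads gave 66 higher, with RLTR19-int at 0.51, RMER15 at 0.39 and RMER19B at 0.50 now above 0, and families fitted apart from genes gave 52 lower and 21 higher. Leaving out 1 library gave 12 to 25 lower and 3 to 5 higher; with 1 library left in a group the spread comes from the other group alone, so the lone library is assumed to vary like it. The replicate block gave 23 lower and 6 higher and ended the calls on RLTR19D and RLTR50B (adjusted p = 0.0501 and 0.0523). Same-numbered libraries showed no shared shift: their deviations from the group means correlated at 0.036 over genes and -0.079 over families. This cannot decide whether the replicate numbers pair the libraries, which the labels do not state. The interaction (6 lower, 0 higher) gave 5 higher with total gene reads, 0 lower without a trend (33 at an unadjusted p under 0.05), and 2 to 11 lower and 0 to 2 higher with a library left out. Of the single-library lists, at 10 dpp a minimum of 500 reads left 0 higher, and at 16.5 dpc it left 0 higher, while a ratio of 1.5-fold gave 4 higher and 2 lower. The cause of these shifts was not tested. The medians at 10 dpp and 16.5 dpc of families lower at 20 dpp, minus those of families higher, kept their sign (-0.15 and 0.09) in the alternatives tried. Families with few reads, such as RLTR9A2 at 10 dpp, limit the ratios of the younger ages.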
